A study of Mus musculus with 2 samples.

Results

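The genes examined here encode proteins of the mitochondrial ribosome. They were taken as all protein-coding genes of the mm9 annotation (GENCODE vM1) whose symbol starts with Mrpl or Mrps followed by a digit, which gave 77 genes of 22380 protein-coding genes in all, 47 named for the large subunit (Mrpl) and 30 for the small subunit (Mrps). The data were a single list of 22286 Tcf1 binding peaks, obtained by ChIP-seq with an antiserum against full-length Tcf1, a T cell transcription factor of the Tcf/Lef family encoded by Tcf7. The WT library (36938606 fragments after removal of duplicates) served as treatment and a Tcf1-deficient library (27625250 fragments) as negative control, and the question put to the comparison was which sites Tcf1 occupied in WT cells. Both libraries came from naïve CD8+ T cells of mouse spleen, sorted as GFP+ TCRbeta+ CD8+ cells with high CD62L and low to intermediate CD44. The sources differ on the control cells: the title calls them Tcf1-deficient, the genotype field gives Tcf1-/-Lef1-/-, the design text names mice with hCD2-Cre, a Rosa26-lsl-GFP reporter and either WT or floxed Tcf1 and Lef1 alleles, and the study's methods describe deletion of Tcf7 alone by Cd4-Cre, which is active from the thymic stage on in T lineage cells. The study's methods give mice on the C57BL/6 background, aged 6 to 12 weeks, and whether an individual library pooled several mice was not given in the sources used here. With 1 library per group no value below has a replicate check, intervals cover counting error only, and no test set the Mrpl and Mrps genes against other genes.

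Mitochondria carry their own ribosomes, which translate the few proteins encoded by mitochondrial DNA, all of them subunits of the oxidative phosphorylation chain. The ribosomal RNAs are encoded in the mitochondrial genome, while every protein of these ribosomes is encoded in the nucleus, made in the cytosol and imported. Naïve T cells are quiescent, and upon activation they expand their mitochondria and mitochondrial translation.

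Sequences under the summits, the positions of highest coverage within peaks, are shown first for 6 genes. These have the tallest peaks among those holding an ETS core (CGGAAGT, the site read by ETS family factors such as Gabpa) within 100 bp of the summit. Like the cores of Sp/Klf, Nrf1 and CRE, the ETS core was found at summits of Mrpl and Mrps genes and in 0 of 118 windows of flanking DNA. All of these cores contain the dinucleotide CG, and the flanks were not matched to the summits in base composition. The sequences are given 5′ to 3′ on the strand of the gene in mm9, with the core in capitals, as read (CGGAAGT) or as its reverse complement (ACTTCCG). Short runs were used where the window lay in an exon. The positions are chr17:13109180-13109209 (minus strand) for Mrpl18, chr3:32635702-32635731 (minus) for Mrpl47, chr13:100114642-100114741 (plus) for Mrps27, chr17:36053654-36053683 (minus) for Mrps18b, chr5:101227621-101227660 (plus) for Mrps18c and chr19:11844769-11844868 (plus) for Mrpl16.
Mrpl18: aaactgaaaacgcCGGAAGTagggggctgc
Mrpl47: cttcacttgcctcacgccgccagCGGAAGT
Mrps27: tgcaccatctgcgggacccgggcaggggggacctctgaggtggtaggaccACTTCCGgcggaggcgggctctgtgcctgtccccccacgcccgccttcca
Mrps18b: cctccctttcctctgcctccaccACTTCCG
Mrps18c: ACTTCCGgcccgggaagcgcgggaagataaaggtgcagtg
Mrpl16: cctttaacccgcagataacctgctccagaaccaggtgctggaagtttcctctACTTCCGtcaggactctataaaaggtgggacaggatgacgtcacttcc

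Measured to the centre of the core, the summit lay at 2 bp in Mrpl18 and 3 bp in Mrps27, both within the core itself, at 5 bp in Mrpl16, 15 bp in Mrps18b, 47 bp in Mrps18c and 88 bp in Mrpl47. Mrpl19 is shown because its summit was the only one of these genes with the 7-base Tcf/Lef core (ATCAAAG) within 100 bp, at 57 bp (chr6:81915651-81915730, minus strand, core in capitals as its reverse complement).
Mrpl19: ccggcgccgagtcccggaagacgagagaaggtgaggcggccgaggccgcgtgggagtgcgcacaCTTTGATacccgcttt

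The 100 bases at or next to the summits of the tallest peaks, at Mrpl43 (chr19:45080978-45081077, minus strand) and Mrpl33 (chr5:31899154-31899253, plus strand), are shown for contrast. The first opens with the Sp/Klf core CCCGCCC, in capitals, and the second held none of the 8 cores searched.
Mrpl43: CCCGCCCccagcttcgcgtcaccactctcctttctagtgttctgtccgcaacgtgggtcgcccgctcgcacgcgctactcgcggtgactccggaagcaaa
Mrpl33: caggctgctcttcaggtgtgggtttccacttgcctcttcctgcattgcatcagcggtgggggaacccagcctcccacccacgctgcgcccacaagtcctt

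A gene was taken as bound when a deposited summit lay within 1 kb of an annotated start site of any of its transcripts. Of the 77 Mrpl and Mrps genes, 59 were bound (76.6%, exact 95% interval 65.6 to 85.5), against 36.6% of all protein-coding genes (8200 of 22380). High-confidence peaks, by the criteria of the study's methods, had a q below 0.05, a p below 1e-05 and WT signal no less than 4 times the local control. By these, 50 were bound (64.9%, interval 53.2 to 75.5), against 32.7% of all protein-coding genes (7328 of 22380). These 59 genes had 59 distinct strongest peaks, so no pair of them was counted through one shared peak. They lay on 17 chromosomes.

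By symbol, 39 of 47 large-subunit genes were bound (83.0%, interval 69.2 to 92.4) and 20 of 30 small-subunit genes (66.7%, interval 47.2 to 82.7), and these intervals overlap. Symbols do not follow the structure throughout: Mrps18a and Mrps30 encode proteins that sit in the large subunit, and Mrps36 is known as a part of the oxoglutarate dehydrogenase complex. With Mrps18a and Mrps30 placed in the large subunit, 41 of 49 large-subunit genes (83.7%) and 18 of 28 small-subunit genes (64.3%) were bound. Leaving out Mrps36 and Mrps36-ps1, annotated as protein-coding although its symbol marks a pseudogene, the small subunit held 18 bound genes of 26 (69.2%). Mammalian mitochondrial ribosomal proteins numbered up to 36 (Mrpl) or 21 (Mrps) take their number from a bacterial homologue, and those above are mostly additions of the mitochondrial lineage. Of the genes with a bacterial number 37 of 44 were bound (84.1%, interval 69.9 to 93.4) and of the others 22 of 33 (66.7%, interval 48.2 to 82.0).

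**Figure D1:**
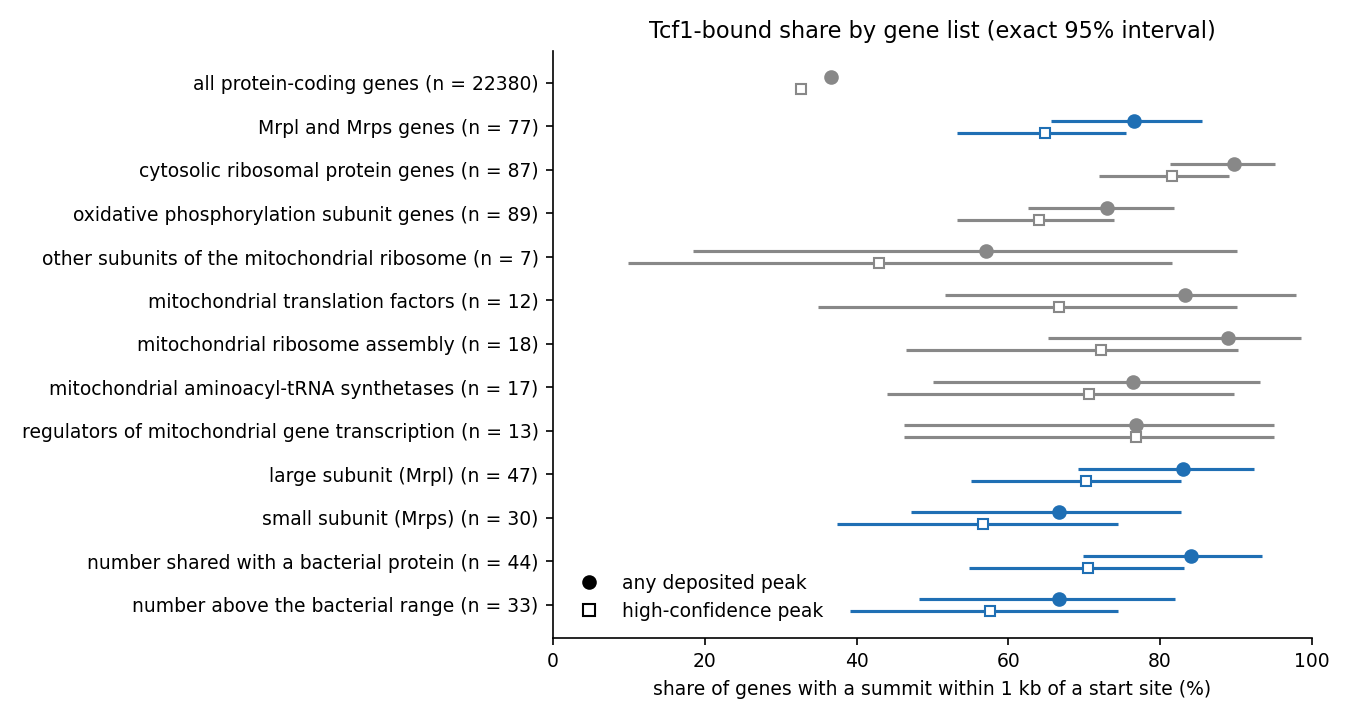
Share of genes with a Tcf1 summit within 1 kb of a start site (%, horizontal axis) for all protein-coding genes, for the Mrpl and Mrps genes and their subsets (blue) and for the other gene lists (grey). Circles stand for any deposited peak, squares for high-confidence peaks and bars for exact 95% intervals, and the 76.6% of Mrpl and Mrps genes bound lies above the 36.6% of all protein-coding genes.

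Height was measured as pileup, the count of WT fragments that cover the summit, for the peak with the largest pileup at each gene. The 59 bound genes had a median pileup of 44 (interquartile range 28.5 to 55), between 20 and 216, and the 8200 bound protein-coding genes a median of 41 (interquartile range 31 to 59). The median fold enrichment over the local control level was 6.54 for the Mrpl and Mrps genes and 6.39 for all bound genes. The interquartile ranges of both overlap. The control level is the local level used by the peak caller, computed back from pileup and fold enrichment, and not a count of fragments in the control library. At 48 of the 59 summits (81.4%) it was at its genome-wide floor of 5.42, against 82.7% of all bound genes. For most of these peaks fold enrichment thus followed from pileup alone.

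Large-subunit genes, 39 of the 59 bound, had a median pileup of 47 (interquartile range 31 to 59.5) and small-subunit genes of 35 (interquartile range 26 to 50). A pileup of 50 or more was reached by 18 of 39 large-subunit genes (46.2%) and 5 of 20 small-subunit genes (25%), against 35.6% of all bound genes. A pileup of 60 or more was reached by 10 of 39 large-subunit genes and by 1 of 20 small-subunit genes, Mrps27. Of all bound protein-coding genes 75.2% had a pileup below 60. Neither limit was fixed beforehand, and Mrpl1 and Mrpl45 (59 each) and Mrps18b (58) lay just below 60. The small-subunit genes ran from 20 to 70 fragments and the large-subunit genes from 21 to 216.

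**Figure D2:**
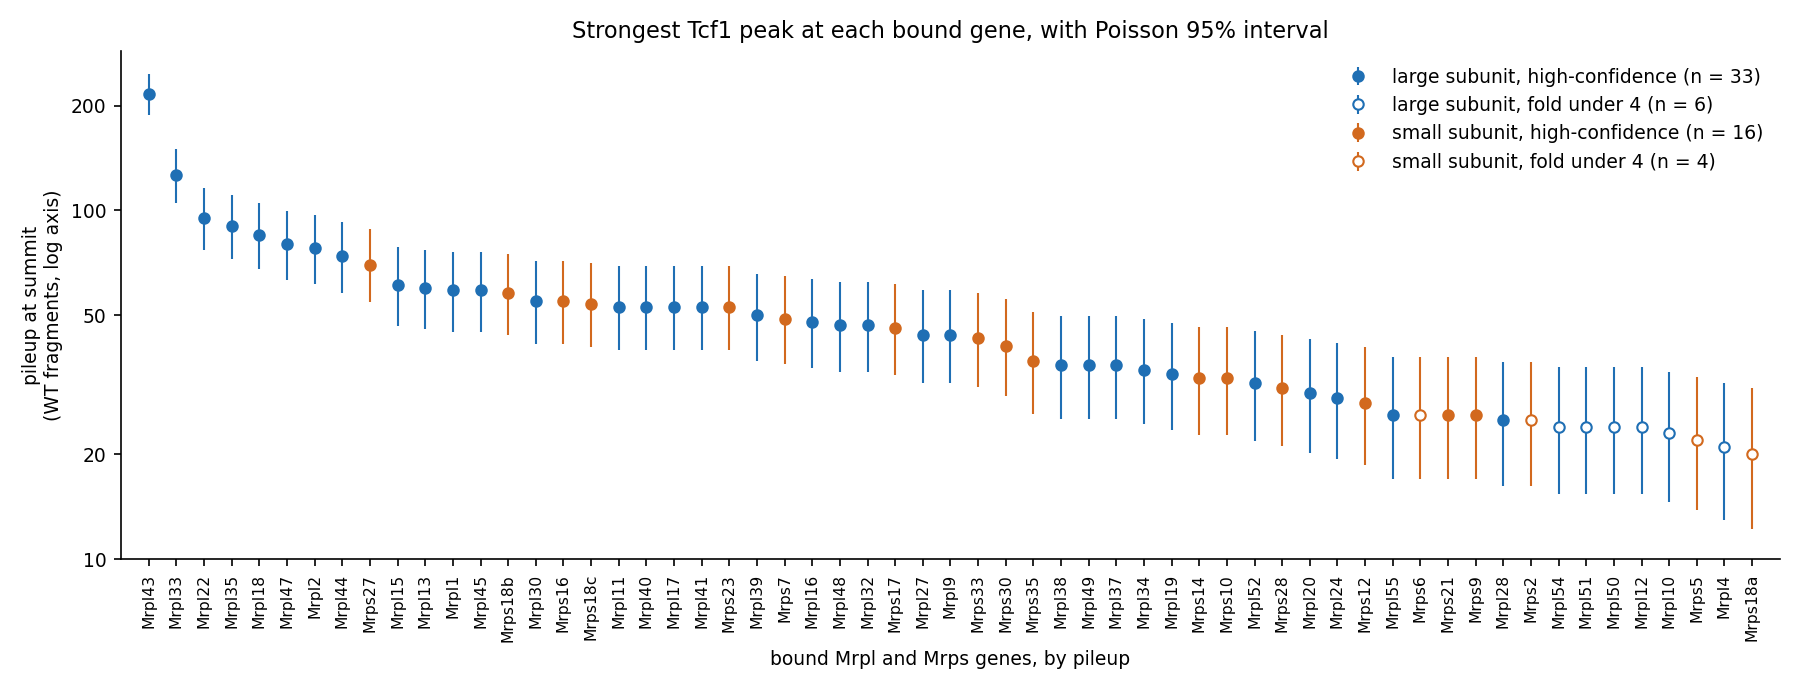
Pileup at the summit of the strongest Tcf1 peak (WT fragments, log axis) at each of the 59 bound Mrpl and Mrps genes, ordered by pileup, with Poisson 95% intervals as bars. Blue marks large-subunit and orange small-subunit symbols, open circles have a fold enrichment under 4, and Mrpl43 (216) and Mrpl33 (126) stand above the others, which run from 95 to 20.

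The tallest peak was at Mrpl43, with a pileup of 216 (Poisson 95% interval 188 to 247) and a fold enrichment of 33.8, over chr19:45080713-45081429. Its pileup was above that of 99.0% of bound protein-coding genes. The summit lay 147 bp upstream of Mrpl43 and 31 bp inside Peo1, the gene of the mitochondrial DNA helicase Twinkle, which starts on the opposite strand, so that the peak sat nearer to Peo1.

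Mrpl33 followed with 126 fragments (105 to 150) at 104 bp upstream, over chr5:31898872-31899532. Here the control level was 7.35 and the fold enrichment 15.2. No other gene started within 1 kb of this summit.

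Among the next genes, Mrpl22, whose product lines the polypeptide exit tunnel, had 95 fragments (76.9 to 116) at 5 bp upstream. Mrpl35 had 90 (72.4 to 111) at 13 bp upstream. Mrpl18, whose bacterial homologue binds 5S rRNA, had 85 (67.9 to 105) at 16 bp inside the gene, exactly at an annotated start of Tcp1, which encodes a subunit of the cytosolic chaperonin. The intervals of these genes overlap one another, and those of Mrpl22 and Mrpl35 overlap that of Mrpl33, whereas the interval of Mrpl43 overlaps none of them.

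Mrpl47 had 80 fragments (63.4 to 99.6) at 276 bp inside the gene, but the summit was nearer to Ndufb5, a complex I subunit gene that starts 119 bp away. Mrpl2, whose product belongs to the core around the peptidyl transferase centre, had 78 (61.7 to 97.3) at 33 bp upstream. Mrpl44, which carries a fold of the RNase III family, had 74 (58.1 to 92.9) at 50 bp inside. The peaks of Mrpl44 and Mrpl47 thus each lay within 300 bp of a start of a further gene, Wdfy1 in the case of Mrpl44.

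Mrps27, a small-subunit protein with pentatricopeptide repeats, had the tallest small-subunit peak, with 70 fragments (54.6 to 88.4) and a control level above the floor. The summit lay 49 bp upstream of Mrps27 and 59 bp upstream of Ptcd2, itself a pentatricopeptide repeat gene, between the divergent starts. Mrpl15 had 61 fragments (46.7 to 78.4). Mrpl13 had 60 (45.8 to 77.2), with the summit at an alternative start, 399 bp inside its 5′ end and 59 bp from a start of Mtbp. Mrpl1, whose bacterial homologue forms the stalk near the tRNA exit site, had 59 (44.9 to 76.1). Mrpl45, which attaches the ribosome to the inner membrane, had the same 59 fragments. Its summit lay 30 bp upstream of an alternative start and 102 bp inside its 5′ end. Their intervals overlap that of Mrps27.

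At the lower end, Mrps18a had 20 fragments (12.2 to 30.9), Mrpl4 had 21 (13.0 to 32.1), Mrps5 had 22 (13.8 to 33.3) and Mrpl10 had 23 (14.6 to 34.5). Mrpl12 had 24 fragments (15.4 to 35.7), as did Mrpl50, Mrpl51 and Mrpl54. Mrpl10 and Mrpl12 encode the base and the arms of the stalk that recruits translation factors. These 8 genes and Mrps2 (25 fragments, fold enrichment 3.56) were the 9 bound genes with no high-confidence peak, and their fold enrichments ran from 2.86 at Mrpl4 to 3.90. Just above the minimum of 4 stood Mrpl28 at 4.05. For 14 of the 59 strongest peaks the fold enrichment lay within 1 Poisson SD of that minimum, so the side on which they fell is within counting error.

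A pair of summits was found at 5 genes. At Mrpl1 the 59 fragments at 73 bp inside the gene were joined by 35 at 717 bp upstream. Mrpl33 had a further summit of 35 fragments 809 bp downstream of an alternative start, and Mrpl48 had 47 and 36 at different starts. Mrps10 had 33 fragments 24 bp upstream of an internal start and 26 fragments 22 bp upstream of its 5′ end, and Mrps6 had 26 at each of its summits. The Mrps6 summit upstream of the gene had a fold enrichment of 3.23 over a control level of 7.35, and the summit 640 bp inside had 4.21 over the control floor. Mrps6 thus counted as bound with high confidence by the second alone. The other 54 bound genes had a single summit.

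Peaks sat close to the start sites. The median distance between summit and nearest own start was 68 bp (interquartile range 26.5 to 116) for the Mrpl and Mrps genes and 85 bp (33 to 206) for all bound genes. Within 100 bp lay 40 of 59 summits (67.8%), against 54.7% of all bound genes, within 200 bp 52 of 59, and beyond 300 bp 4 of 59. Upstream of the start lay 67.8% of summits, against 69.5% of all bound genes. By annotation 35 summits were upstream of the gene, 15 in the non-coding part of an exon, 5 in an intron and 4 in a coding exon (Mrpl19, Mrps28, Mrps9 and Mrpl54).

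**Figure D3:**
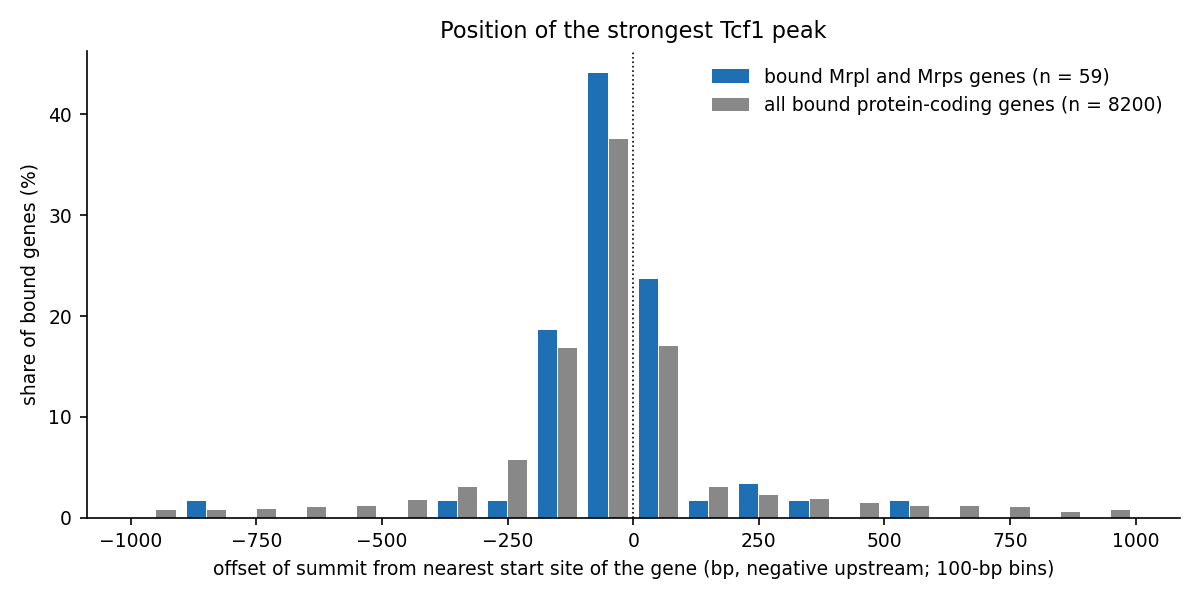
Offset of the summit of the strongest Tcf1 peak from the nearest start site of the gene (bp, negative upstream, bins of 100 bp) as share of the 59 bound Mrpl and Mrps genes (blue) and of the 8200 bound protein-coding genes (grey). The bin just upstream of the start holds 44.1% of the Mrpl and Mrps genes, and few of them lie more than 200 bp away.

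The largest offsets were at Mrpl41, 872 bp upstream with 53 fragments, at Mrpl9, 518 bp inside the gene with 44 fragments, and at Mrps18b, 338 bp upstream with 58 fragments. The Mrpl41 summit lay 63 bp from the start of Pnpla7, and the Mrps18b summit 55 bp from that of Ppp1r10, a regulatory subunit of protein phosphatase 1. Mrpl41 is the bound gene nearest to the 1 kb limit, and the nearest gene outside it was Mrpl36, with its closest summit at 2.38 kb. The Mrpl9 summit had no further gene within 1 kb.

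Peak length had a median of 481 bp (interquartile range 316 to 627) for these genes and 535 bp (369 to 745) for all bound genes. The shortest peak was 210 bp, at Mrpl12, and the longest 2027 bp, at Mrps18b, one of 4 over 1000 bp. Taller peaks were longer: across the 59 genes Spearman's rho of length and pileup was 0.672, and across all 8200 bound genes 0.666, both values being read from the same library. Distance and pileup had a rho of -0.0691 and promoter GC content and pileup of 0.0112 across the 59 genes.

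Many of these promoters are shared with a neighbour. An opposite-strand start of another gene lay within 1 kb upstream for 25 of 77 genes (32.5%), against 11.6% of all protein-coding genes. With such a neighbour 20 of 25 were bound (80.0%, interval 59.3 to 93.2), against 73.9% of all protein-coding genes of that class. Without one 39 of 52 were bound (75%, interval 61.1 to 86.0), against 31.7%. The bound share of the Mrpl and Mrps genes was thus within its counting error of the background at promoters with such an upstream start, and above it at the others. Only starts upstream of the 5′ end were counted. Genes with an overlapping opposite start, such as Mrpl46 (with Mrps11) and Mrpl47 (with Ndufb5), are therefore among the others.

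At 25 of the 59 summits a start of another gene lay within 1 kb, a protein-coding gene in 24 cases, and 11 summits were nearer to the other gene. These counts were not made over all bound genes. The partners have varied roles, and whether any role is more frequent than among neighbours of other bound genes was not tested. They include Peo1 (with Mrpl43), Ndufb5 (Mrpl47), Ptcd2 (Mrps27), Sars2, the mitochondrial seryl-tRNA synthetase (Mrps12), and Fau, which encodes a cytosolic small-subunit ribosomal protein (Mrpl49), and also Psma2 of the proteasome (Mrpl32), the histone chaperone Hira (Mrpl40), the DNA helicase Helq (Mrps18c) and Ncapd2 of condensin (Mrpl51). At Mrpl49 the 36 fragments had their summit exactly at the start of Fau and 135 bp upstream of Mrpl49. At Mrps12 the 28 fragments lay 64 bp inside the gene and 285 bp from Sars2. A peak list cannot assign such a peak to either gene. With each summit counted only for the nearest gene, 49 of 77 Mrpl and Mrps genes were bound (63.6%, interval 51.9 to 74.3), against 31.8% of all protein-coding genes. The bound genes thus went from 59 to 49 among Mrpl and Mrps genes and from 8200 to 7117 among all protein-coding genes.

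The bound share of the Mrpl and Mrps genes was nearly the same in 3 of the 4 quartiles of promoter GC content. GC content was taken within 250 bp of the 5′ end of each gene and split at 48.7, 57.1 and 64.9%, the quartiles of all protein-coding genes. Over all genes the bound share went from 9.65% in the lowest quartile to 27.9, 51.8 and 57.6%. The Mrpl and Mrps genes had 2 of 3 bound in the lowest quartile, 20 of 26 (76.9%, interval 56.4 to 91.0) in the second, 27 of 35 (77.1%, interval 59.9 to 89.6) in the third and 10 of 13 (76.9%, interval 46.2 to 95) in the highest. The intervals lie above the share of all genes in the second and the third quartile. In the highest quartile, and in the lowest with its 3 genes (interval 9.43 to 99.2), they include it. Promoter GC had a median of 60.1% (47.7 to 72.9) at the bound genes and 57.8% (43.9 to 71.1) at the unbound ones, with ranges that overlap almost wholly.

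**Figure D4:**
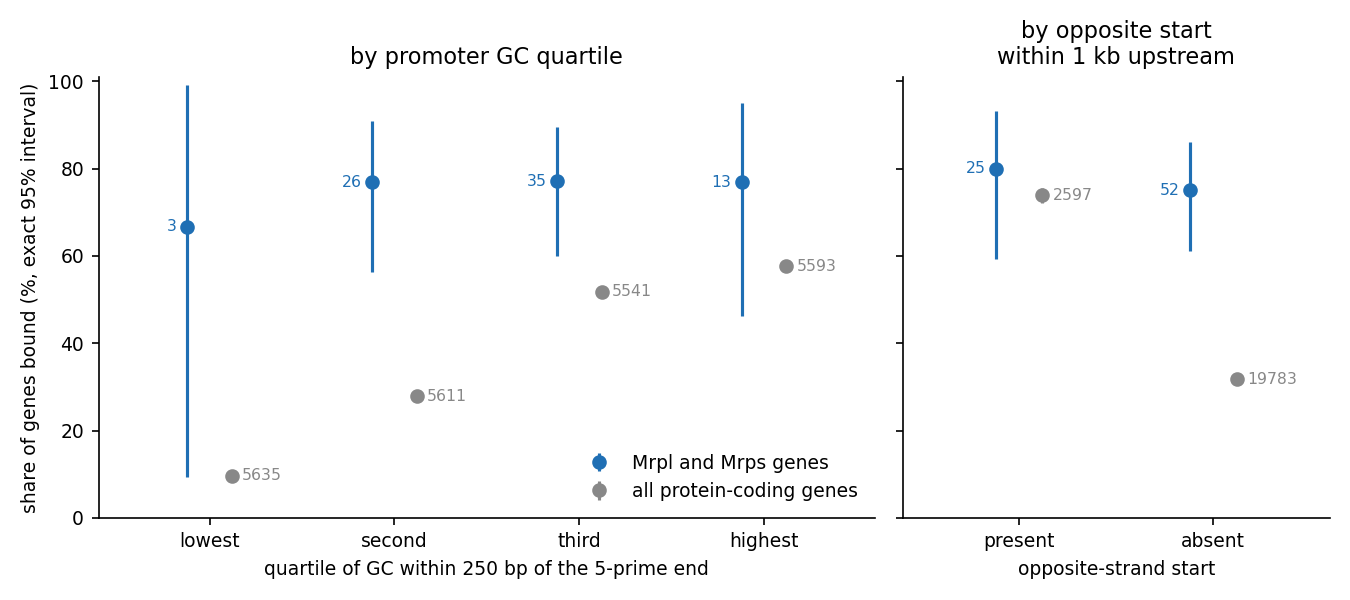
Share of genes bound (%, with exact 95% intervals) by quartile of promoter GC content (left) and by presence of an opposite-strand start within 1 kb upstream (right), for Mrpl and Mrps genes (blue) and all protein-coding genes (grey), with the number of genes beside each point. The blue points stay between 66.7 and 80.0%, while the grey ones run from 9.65 to 73.9%.

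Both strands of the 100 bp on each side of every strongest summit were searched for motif cores, as were windows of the same size 2 kb to each side. These flanks were not matched to the summits in base composition. No core is contained in another. The Tcf/Lef core ATCAAAG was found at 1 of 59 summits (1.69%, interval 0.0429 to 9.09), against 4.49% of the 7213 distinct peaks of all bound genes and 3.39% of the flanks of these genes. That summit belonged to Mrpl19 (34 fragments, 85 bp upstream of a start), shown above. In the promoters, taken from 250 bp before to 50 bp after the 5′ end, the core was found in 0 of 77 Mrpl and Mrps genes and in 3.47% of all protein-coding genes.

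The ETS core CGGAAGT was found at 11 of 59 summits (18.6%, interval 9.69 to 30.9), at 14.4% of all bound peaks and in 0 of 118 flanking windows. Besides the 6 genes shown above, it was found at Mrps17, Mrpl27, Mrps35, Mrpl52 and Mrpl54. These 11 peaks ran from 85 fragments at Mrpl18 to 24 at Mrpl54. In the promoter windows it was found in 22.0% of bound and 16.7% of unbound Mrpl and Mrps genes, in 15.9% of all bound protein-coding genes and in 7.76% of all protein-coding genes.

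The core of Nrf1, a factor known for nuclear genes of mitochondrial function (GCGCATGC), was found at 5 summits (8.47%, interval 2.81 to 18.7), at 3.95% of all bound peaks and in 0 of 118 flanks. The 5 were Mrpl22, Mrps18b, Mrpl39, Mrpl32 and Mrpl10. The Yy1 core AAGATGG was found at 4 summits (6.78%, all bound peaks 5.66%, flanks 3.39%), those of Mrpl35, Mrps27, Mrpl49 and Mrpl52. In promoter windows the Yy1 core was found in 16.9% of bound and 22.2% of unbound Mrpl and Mrps genes, in 7.83% of all bound protein-coding genes and in 6.73% of all protein-coding genes.

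The Sp/Klf core CCCGCCC was found at 16 summits (27.1%, interval 16.4 to 40.3), against 39.2% of all bound peaks, and the NF-Y core CCAAT at 12 (20.3%), against 26.6% of all bound peaks and 22.9% of flanks. The cores TGACGTCA (CRE) and TGTGGTT (Runx) were each found at 2 summits (3.39%), against 3.56% of all bound peaks and 0 of 118 flanks for CRE and 4.67% of all bound peaks and 4.24% of flanks for Runx. None of the 8 cores was found at 21 of the 59 summits, Mrpl33 among them. For all 8 cores as searched the share over all bound peaks lay within the interval of the Mrpl and Mrps genes, but with the ETS core shortened to GGAAG the share was 81.4% (interval 69.1 to 90.3) against 66.3% of all bound peaks.

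**Figure D5:**
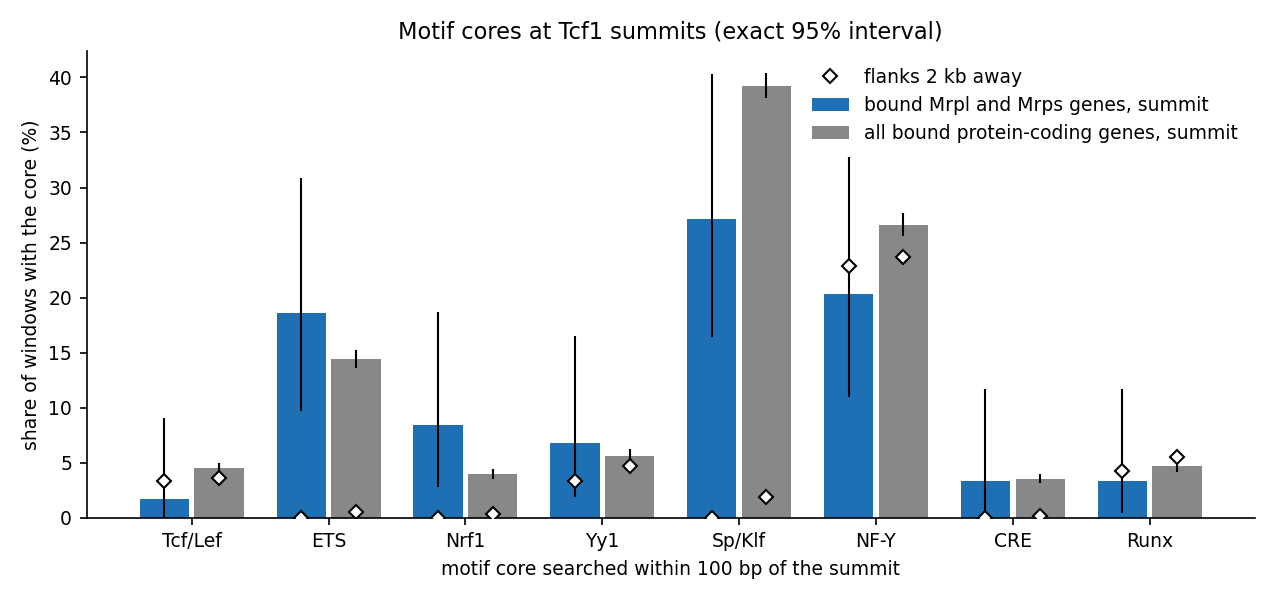
Share of summit windows (%, 100 bp on each side) with each motif core for the 59 bound Mrpl and Mrps genes (blue bars) and the 7213 peaks of all bound protein-coding genes (grey bars), with exact 95% intervals as lines and the share in windows 2 kb away as diamonds. ETS, Nrf1, Sp/Klf and CRE cores, all of which contain CG, stand above their flanks in both groups. The Tcf/Lef core is at 1.69% of Mrpl and Mrps summits against 3.39% of their flanks. The flanks were not matched to the summits in base composition.

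The 18 unbound genes were Mrpl3, Mrpl14, Mrpl21, Mrpl23, Mrpl36, Mrpl42, Mrpl46 and Mrpl53 of the large subunit, and Mrps11, Mrps15, Mrps22, Mrps24, Mrps25, Mrps26, Mrps31, Mrps34, Mrps36 and Mrps36-ps1. They include core proteins of both subunits, such as Mrpl3 near the peptidyl transferase centre and Mrpl23 at the exit of the tunnel. For 5 of them a summit lay within 10 kb: Mrpl36 (2.38 kb), Mrps31 (5.39 kb), Mrpl53 (6.26 kb), Mrps34 (8.53 kb) and Mrps26 (8.68 kb). The other 13 had none within 10 kb.

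The summit nearest to Mrpl36 was that of a tall peak (120 fragments, fold enrichment 18.9) at a start of Ndufs6, a complex I subunit gene. The nearest one to Mrpl53, with 43 fragments, was at Mogs, a glucosidase of glycoprotein processing. Mrpl46 and Mrps11, which start head to head on chr7 with overlapping 5′ ends, were both unbound, with their nearest summit at 45.0 kb (89 fragments). Mrpl3 had its nearest summit at 29.8 kb (159 fragments), Mrpl14 at 105 kb and Mrps36-ps1 at 177 kb. An unlisted peak says only that no summit passed the caller's limit at this depth, not that Tcf1 was absent.

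Of the lists of genes whose products work with these ribosomes, between 57.1 and 88.9% of genes were bound, against 36.6% of all protein-coding genes. Of 7 further ribosomal subunits with other names 4 were bound (interval 18.4 to 90.1%, which includes the share of all genes), led by Dap3, the GTP-binding small-subunit protein, with 68 fragments (Gadd45gip1, Chchd1 and Mrp63 were unbound). Of 12 translation factors 10 were bound (interval 51.6 to 97.9%), led by Mtfmt, which formylates the initiator tRNA, with 100 fragments, and Mtrf1 and Mtrf1l of the release factor family were unbound. Of 18 gene records for ribosome assembly 16 were bound (65.3 to 98.6%), led by the rRNA methyltransferase gene Nsun4 with 156 fragments, which the annotation lists as a pair of records under 1 peak, and Ftsj2 and Eral1 were unbound. Of 17 mitochondrial aminoacyl-tRNA synthetases 13 were bound (50.1 to 93.2%), and Hars2, Rars2, Tars2 and Vars2 were unbound.

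The 89 oxidative phosphorylation subunit genes had 65 bound (73.0%, interval 62.6 to 81.9), a median pileup of 37 and a median distance of 56 bp. The 87 cytosolic ribosomal protein genes had 78 bound (89.7%, interval 81.3 to 95.2), a median pileup of 44 and a median distance of 38 bp. The Mrpl and Mrps genes, at 76.6%, 44 fragments and 68 bp, had a share between those of the other lists, and their interval overlaps both. With high-confidence peaks the shares were 64.9% for the Mrpl and Mrps genes, 64.0% for the oxidative phosphorylation genes and 81.6% for the cytosolic ribosomal protein genes.

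At genes that mark blood cell types, summits were found at Cd3e, Cd3d, Cd3g, Cd8a and Cd8b1 (33 to 520 fragments) and at Tcf7 (367 fragments), and none at the B cell genes Ms4a1 and Cd79a or the myeloid genes Lyz2 and Csf1r, while Itgam, a myeloid marker, had 1 summit with 65 fragments. Binding is not expression, so these summits do not check which cells were sorted, and no expression data entered this account.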

How the data were processed

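Tcf1 ChIP-seq was measured in naïve CD8+ T cells in 1 WT and 1 Tcf1-deficient library. The authors aligned the reads to mm9 with Bowtie2 2.2.5 and called 1 peak list with MACS2 2.1.1, the Tcf1-deficient library as control, at a p limit of 1e-05. The libraries held 46428124 (WT) and 36118114 (control) fragments before removal of duplicates. The deposited pileup is a signal, the unscaled coverage by WT fragments in whole numbers, and the fold enrichment, as deposited, is a ratio of the pileup to the local control level, each with 1 added as pseudocount. The deposited p-value and q-value columns hold −log10 values. The deposited positions and lengths are in bp.

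From these, with Python 3.11.15, pandas 2.3.3, scipy 1.17.1 and pysam 0.24.0, each summit was assigned to every gene with a GENCODE vM1 start within 1 kb, and the peak with the largest pileup stood for a gene. Assignment was tested on simulated data. The control level was computed back from pileup and fold enrichment. Intervals are exact (Clopper-Pearson) for shares and Poisson for pileups, at 95%, and no test was run. Genes and lists were chosen with earlier results of these data known. Cytosolic ribosomal protein and oxidative phosphorylation genes were taken by symbol, which brings in a few genes of other function (Rps19bp1, Cox4nb, Atp5s, Atp5sl). Noa1, Malsu1 and Tefm matched no annotated symbol, and Mtg2 entered as Gtpbp5. Named were the 12 tallest and 5 lowest bound genes (with ties), those unbound, those without a high-confidence peak, those with 2 summits, those with a Tcf/Lef core, the 3 with the largest offset, and, in each of the lists of other mitochondrial ribosome subunits, translation factors, assembly factors, synthetases and regulators, the unbound genes and the one with the tallest peak, which for the aminoacyl-tRNA synthetases is not reported here. Neighbouring genes, the other genes with a motif core and the sequences of Mrpl43 and Mrpl33 were added after their values were seen. The alternatives changed the window, start sites, peak limits, assignment, motif windows and cores.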

Additional observations from a re-analysis of the deposited data

How the results depend on the processing

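Of 47 alternatives for the results on the Mrpl and Mrps genes, 40 moved the value by less than its counting error. The medians were not recomputed over all genes under the alternatives. The bound share of Mrpl and Mrps genes moved to 26.0% (all protein-coding genes 11.7%) at a fold enrichment of at least 8, which also moved the high-confidence share to 26.0%, to 55.8% (28.2%) at a −log10 q of at least 10, and to 63.6% (31.8%) with each summit given to its nearest gene only. The share of all protein-coding genes also moved with the window and the start sites, to 34.2% at 500 bp, 39.1% at 2.5 kb and 34.1% with the 5′ end of the gene only. The ETS core shortened to GGAAG was at 81.4% of summits (interval 69.1 to 90.3), with the 66.3% of all bound peaks below that interval, and the Tcf/Lef core shortened to TCAAAG at 15.3%, above the 14.0% of all bound peaks, whereas the longer core was below them (1.69 against 4.49%). Shorter cores match more often by their length. Within 50 bp of the summit the Tcf/Lef core was at 0 of 59 (0.0%), and within 250 bp at 5 of 59 (8.47%, interval 2.81 to 18.7). Leaving out Mrps36-ps1, an alternative chosen after seeing the data, gave 77.6%. No paired analysis was possible because each group had 1 library and no replicate could be left out. At this depth the fold minimum of 4 lies within the counting error of low peaks.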

Other observations

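Of 13 regulators of mitochondrial gene transcription, some acting on nuclear genes and some on mitochondrial DNA, 10 were bound (76.9%, exact 95% interval 46.2 to 95), all by a high-confidence peak, against 36.6% of all protein-coding genes for any peak and 32.7% for high-confidence peaks. The tallest was at Pprc1, a coactivator of the PGC-1 family, with 134 fragments. Gabpb1, a subunit of the ETS factor GABP, had 70 fragments and its DNA-binding partner Gabpa 38, Nrf1 had 38, Yy1 had 47, and Tfam, which packages mitochondrial DNA, had 47. Their peaks were long, with a median of 913 bp, against 481 bp at the Mrpl and Mrps genes and 535 bp over all bound genes. The coactivator genes Ppargc1a and Ppargc1b and the mitochondrial RNA polymerase gene Polrmt were unbound.

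Away from start sites, Mrpl33 was the only Mrpl or Mrps gene with further peaks in its body, which is long in this annotation. A peak of 27 fragments lay 5.57 kb from its 5′ end and one of 73 fragments 102 kb from it, the latter at starts of Bre and Rbks.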
